A study of Bos taurus with 23 samples.

Results

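The genes described here are 73 of the 18897 genes in the count table: abundant genes of bovine endometrium whose level was mildly higher after interferon tau and after culture with a conceptus. Each gene was chosen by its CPM, the reads per 1000000 counts of the library. The mean Control level had to be at least 30 CPM and the mean level with interferon tau at least 1.3 and under 2 times that. The explant with interferon tau had to lie above its Control partner, the one of the same uterus number, in all 6 pairs. The mean of each conceptus group had to exceed 1.2 times the Control mean. These values chose the genes, so the differences from Control below are a description and were not used as a test.

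Before the conceptus attaches, the trophoblast of ruminants secretes interferon tau, a type I interferon, and the mother recognises pregnancy by this signal. Type I interferons bind a receptor pair on the cell surface, and the signal passes through receptor-bound kinases to the nucleus, where response elements in the promoters of interferon-stimulated genes are bound. Some of these genes are nearly silent before treatment and respond by large factors, while others are already expressed at rest.

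All explants were intercaruncular endometrium, the gland-bearing lining between the sites of placental attachment, from bovine uteri in the mid-luteal phase, and all were cultured for 6 h. Control explants (n = 6) had medium alone, and IFNT explants (n = 6) had 100 ng per mL of recombinant ovine interferon tau. The other explants shared the culture with a Day 15 conceptus, which had developed from a blastocyst produced in vivo in the AI group (n = 4) or in vitro in the IVF group (n = 7). The titles of the conceptus libraries carry a further code that no label explains: the 4 AI libraries share 1 code, and the 7 IVF libraries carry 5, of which 2 are each on 2 libraries. Whether libraries with the same code are independent is thus unknown, and in AI against IVF the origin and this code cannot be told apart. A library's name gives its group and the number of its uterus, as read from the U number in its title (IFNT 2 is the IFNT explant of uterus 2). Uteri 1, 2, 3 and 4 gave all 4 treatments, uteri 5 and 10 gave all but AI, and uterus 7 gave an IVF explant only. The labels give neither genotype nor age of the animals. Total counts ranged from 19461678 to 36730378 per library. The lowest count of any of the 73 genes in any library was 404 reads, for which counting error alone is 4.98% of the value.

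The table names genes by Ensembl identifiers only and does not pair them with symbols, and no identifier matched the symbol table at hand. The 73 genes are therefore described by level and rank, and 4 are given by identifier. Members of the interferon pathway and markers of cell types could not be looked up, so the labelled tissue was not checked against its markers. A difference in these bulk libraries cannot be told apart from a difference in cell makeup, since fewer cells of a type and less RNA per cell give the same value.

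Of the 5468 genes with a mean Control level of at least 30 CPM, 198 had an IFNT ratio from 1.3 to under 2. In 91 of these the IFNT explant was the higher in all 6 pairs. The other 107 failed in 1 pair (52 genes), 2 pairs (42 genes) or 3 pairs (13 genes). Failures were most frequent in uterus 4 (48 genes), uterus 2 (42 genes) and uterus 1 (39 genes), and least frequent in uterus 5 (14 genes). The condition on the conceptus groups removed another 18 genes. Of these, 12 missed it in both groups, 4 passed in IVF only and 2 passed in AI only. The thresholds cut through a continuous range. The 2 lowest Control means inside were 30.6 and 30.8 CPM, and 29.9 and 29.6 CPM lay just outside. At the lower bound the nearest IFNT ratios were 1.31 and 1.32 inside and 1.29 and 1.29 outside, and at the upper bound 1.98 and 1.93 inside and 2.01 and 2.04 outside. The lowest ratios inside were 1.23 and 1.24 in AI, against 1.13 and 1.11 outside, and 1.21 and 1.25 in IVF, against 1.18 and 1.14 outside. In single pairs the lowest IFNT ratios inside were 1.02 and 1.02, and the nearest outside were 0.999 and 0.991.

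The mean Control level of the 73 genes ran from 30.6 to 2121 CPM, with a median of 64.4 CPM. The ratio of mean IFNT to mean Control CPM ran from 1.31 to 1.98 with a median of 1.56. For AI it ran from 1.23 to 2.47 with a median of 1.58, and for IVF from 1.21 to 2.19 with a median of 1.49. Over the 5468 genes of that abundance the median ratios were 0.922, 0.915 and 0.906, so the typical abundant gene lay slightly under its Control level on this scale. The 3 sets of ratios share their Control libraries. The upper bound of 2 was set for IFNT only: 10 genes reached a ratio of 2 in AI, and 5 of them also did so in IVF. Ratios were similar at higher and lower abundance. The 23 genes of at least 100 CPM had a median IFNT ratio of 1.58, and the 50 below that had 1.55.

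**Figure D1:**
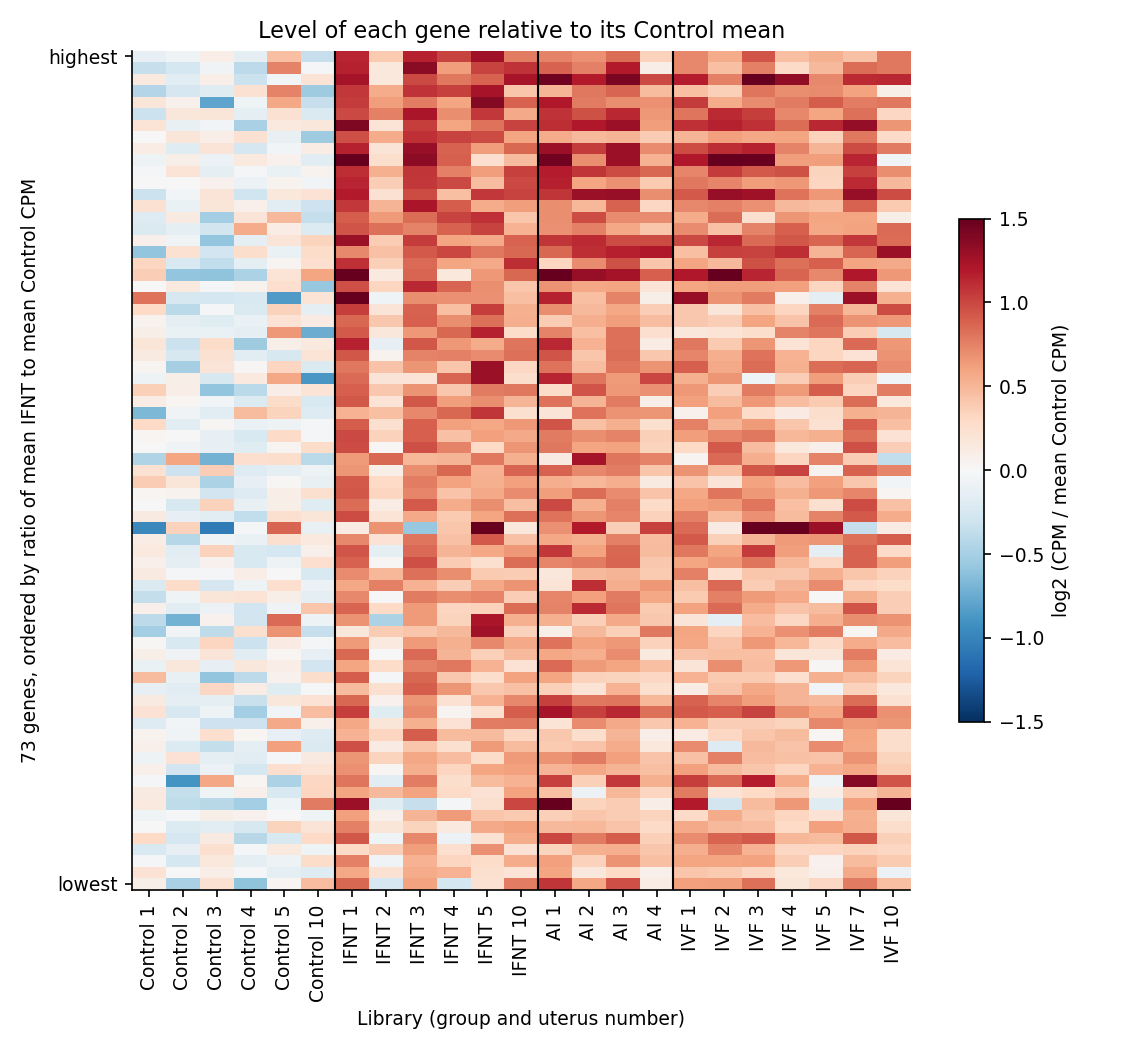
Each row is 1 of the 73 genes, ordered by the ratio of mean IFNT to mean Control CPM, and each column is a library. Colour is log2 of the CPM over the mean Control CPM of that gene, with the scale ending at 1.5 in both directions. Blue cells are nearly all in the 6 Control columns, and the IFNT 2 column is the palest of the IFNT group.

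In 22 of the 73 genes every IFNT library lay above every Control library, which was so for 1.74% of all genes with a read. In AI this held for 41 of the 73 genes (2.27% of all genes) and in IVF for 26 (1.51% of all genes). In 13 genes all 17 treated libraries lay above all Controls (1.28% of all genes). The other genes had at least 1 treated library within or below the Control range. In AI, 71 genes lay above the Control of their own uterus in all 4 pairs (13.2% of all genes). In IVF, 62 did so in all 6 pairs (3.7% of all genes), and the exceptions were most frequent in IVF 5, where 66 of 73 genes lay above Control, and in IVF 10, where 70 did.

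The fit across all genes gives the differences from Control on the log2 scale with an error. It scales library totals by TMM (trimmed mean of M values), so its values are not those of the CPM ratios above. Over all abundant genes, TMM shifted the median log2 ratio to Control by 0.07 in IFNT, 0.10 in AI and 0.13 in IVF. With edgeR's quasi-likelihood test and Benjamini-Hochberg adjustment, 57 of the 73 genes were called higher in IFNT than in Control at an adjusted p under 0.05, where 3.07% of all 15227 tested genes were called higher. With the uterus as a block, 70 were called (4.62% of all genes). AI against Control gave 53 (2.75% of all genes) and 72 with the block (7.45%). IVF against Control gave 57 (2.92% of all genes) and 71 with the block (5.21%). Without AI 3 the count for AI without the block was 28. All 73 genes passed the filter on low counts, and none was lower than Control in any of these fits. The median log2 fold changes were 0.71 for IFNT, 0.77 for AI and 0.71 for IVF without the block. Because the rule used these contrasts, the counts say nothing beyond how the genes were chosen.

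Summed over the 73 genes, Control explants held 10337 CPM ± 908 (SD, n = 6) and IFNT explants 16722 ± 2154 (SD, n = 6). The conceptus groups held 17469 ± 916 (SD, n = 4; AI) and 16551 ± 1027 (SD, n = 7; IVF). This was 1.03% of all counts in Control, 1.67% in IFNT, 1.75% in AI and 1.66% in IVF. Control libraries lay between 9345 and 11829 CPM. IFNT 2 had 12757 CPM, and the other 5 IFNT libraries lay between 16327 and 18825 CPM. The AI libraries lay between 16188 and 18359 CPM and the IVF libraries between 14771 and 17686 CPM. Every treated library was thus above every Control, and the 3 treated groups overlapped each other.

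The most abundant gene of the 73 carried much of that sum. In Control it had 1405, 2482, 1740, 2543, 1985 and 2567 CPM in uteri 1, 2, 3, 4, 5 and 10. In IFNT it had 3486, 2872, 4003, 4260, 3659 and 3862 CPM in the same order. The groups did not overlap, and IFNT 2 was the nearest to its own Control. In AI it had 3849, 4553, 4744 and 4864 CPM in uteri 1 to 4, and in IVF it ran from 2897 to 5221 CPM with a median of 4290. Its mean in Control was 2121 CPM ± 486 (SD, n = 6), and with interferon tau 3690 ± 483 (SD, n = 6). With an AI conceptus it was 4503 ± 454 (SD, n = 4), and with an IVF conceptus 4028 ± 836 (SD, n = 7). It made up 24.6% of the CPM gained by the 73 genes in IFNT, 33.4% in AI and 30.7% in IVF. The 5 genes with the largest gain made up 46.5%, 50.4% and 49.3%. Without the most abundant gene the sum was 1.59 times Control in IFNT, 1.58 times in AI and 1.52 times in IVF, against 1.62, 1.69 and 1.60 times with it.

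**Figure D2:**
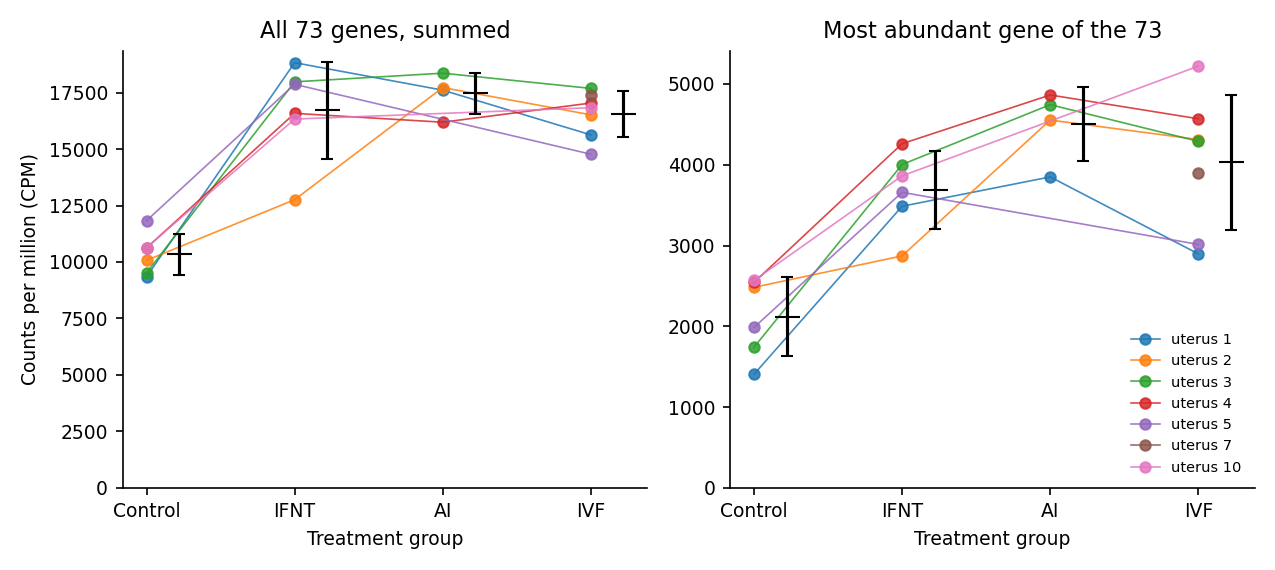
CPM per library by treatment group, summed over the 73 genes (left) and for the most abundant of them (right). Points joined by a line share a uterus, and black bars give the mean ± SD of each group (Control and IFNT n = 6, AI n = 4, IVF n = 7). All treated libraries lie above all Controls in both panels, and IFNT 2 is the lowest IFNT library in both.

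These genes also made up part of the CPM gained in each treated group. A gain in every gene follows from the rule, and CPM is not corrected for gene length. In Control the 73 genes summed to 10337 CPM, against 6941 CPM for those that met the same rule with an IFNT ratio of 2 or more. They accounted for 6.97% of all CPM gained in IFNT over genes with a higher mean than in Control, 6.94% in AI and 6.61% in IVF. The 84 genes that met the same rule with an IFNT ratio of 2 or more gained 20728 CPM in IFNT, 19288 CPM in AI and 18030 CPM in IVF, against 6385, 7132 and 6214 CPM for the 73 genes. The mirror of the rule, with every factor inverted, found 105 genes that were lower. That number depends on the scaling and is 40 when library totals are scaled by TMM (trimmed mean of M values).

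The 2 genes with the highest IFNT ratio lay just under the upper bound. ENSBTAG00000002605 had 28.2, 29.3, 32.9, 27.8, 42.0 and 24.3 CPM in Control uteri 1, 2, 3, 4, 5 and 10, and 67.9, 40.2, 68.4, 62.3, 74.3 and 52.8 CPM in IFNT. Only IFNT 2 fell within the range of the Controls. Its AI libraries had 51.7, 49.5, 55.1 and 39.2 CPM, and its IVF libraries ran from 41.7 to 59.2 CPM with a median of 45.4. Its log2 fold change in IFNT was 1.06 ± 0.16 (SE). ENSBTAG00000013290 had 57.1, 60.3, 69.8, 55.5, 121.6 and 71.6 CPM in Control, and 162, 81.4, 186, 112, 147 and 154 CPM in IFNT. Control 5 stood well above the other Controls and lay above IFNT 2 and IFNT 4, so the groups overlapped. In AI it had 134, 123, 166 and 78.1 CPM, and in IVF it ran from 89.0 to 130 CPM with a median of 119. Its log2 fold change in IFNT was 1.04 ± 0.22 (SE). Both genes were picked for this ratio, so it is given without a test.

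The size of the difference varied between uteri. The median IFNT to Control ratio of the 73 genes was 1.77, 1.25, 1.82, 1.59, 1.43 and 1.52 in uteri 1, 2, 3, 4, 5 and 10. Uterus 2 held the lowest of the 6 IFNT ratios for 46 of the 73 genes. The highest lay in uterus 3 for 29 genes and in uterus 1 for 28. The 84 genes with a ratio of 2 or more had medians of 3.47, 1.99, 3.59, 3.12, 2.48 and 2.94 in the same uteri, with uterus 2 again the lowest. Over all abundant genes the median stayed between 0.883 and 0.941. With a conceptus, uterus 2 was not low: its median ratio was 1.71 in AI and 1.63 in IVF. The lowest conceptus medians were 1.48 in AI 4 and 1.25 in IVF 5. The small ratio in uterus 2 was thus seen in the IFNT library and not in the conceptus explants of that uterus. Its cause was not tested.

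Choosing genes without a uterus and reading them in that uterus gives values the choice did not use. Leaving out uterus 1, 2, 3, 4, 5 or 10 in turn, the rule chose 73, 94, 82, 80, 73 and 77 genes. In the IFNT pair left out, their median ratios were 1.77, 1.16, 1.80, 1.55, 1.39 and 1.505. The share of chosen genes above Control was 100%, 77.7%, 98.8%, 96.3%, 98.6% and 98.7%, against 24.4% to 39.3% of all abundant genes. The left-out AI explants had medians of 1.69, 1.60, 1.75 and 1.48 in uteri 1 to 4. The left-out IVF explants had 1.53, 1.57, 1.63, 1.51, 1.25 and 1.40. The median lay above 1 in every left-out explant, lowest for IFNT in uterus 2 and for IVF in uterus 5.

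**Figure D3:**
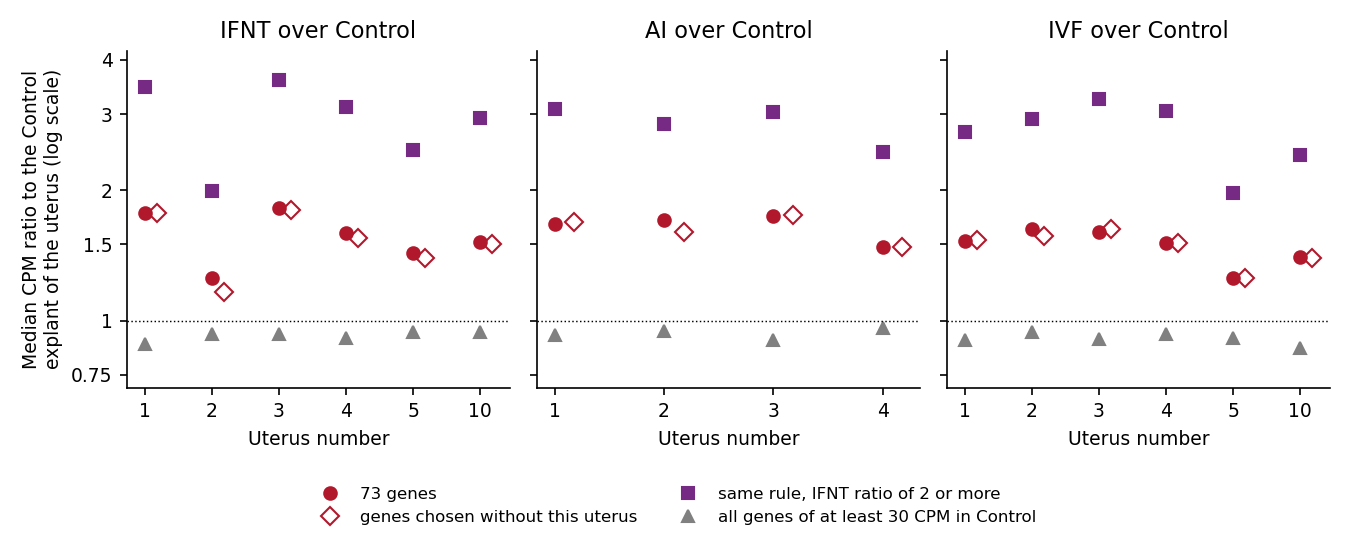
Median CPM ratio to the Control explant of the same uterus (log axis) for IFNT, AI and IVF. Filled circles are the 73 genes, open diamonds the genes chosen without that uterus, squares the 84 genes with an IFNT ratio of 2 or more, and triangles all 5468 genes of at least 30 CPM. Circles and diamonds lie above 1 in every panel, lowest in IFNT 2 and IVF 5, and triangles lie below 1.

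The rule bounded the conceptus and IFNT groups separately and did not compare them with each other. These bounds still limit how far the groups could differ, and those on IFNT were the stricter. The size, direction and number of differences below therefore depend in part on how the genes were chosen. The ratio of the mean conceptus level to the mean IFNT level ran from 0.775 to 1.34 with a median of 0.986, above 1 for 32 genes and below 1 for 41. In the fit without the block, 0 of the 73 genes differed (0% of all 15227 genes). At an unadjusted p under 0.05 there were 3 of them and 1524 of all genes, and DESeq2 called 0 of the 73 and 107 of all genes. Their log2 fold changes ran from -0.32 to 0.46 with a median of 0.03, and 40 were positive.

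Once the uterus entered the edgeR model as a block, 2 of the 73 genes were called, 1 higher and 1 lower with a conceptus, against 6.5% of all genes. The 2 genes were singled out after their values were seen. ENSBTAG00000013225 was the higher. It had 111, 80.9, 90.2, 66.9, 92.5 and 132 CPM in Control, and 196, 84.5, 156, 98.3, 114 and 179 CPM in IFNT. In AI it had 224, 194, 209 and 169 CPM, and in IVF it ran from 142 to 196 CPM with a median of 178. It lay above the IFNT explant of the same uterus in 4 of 4 AI and 4 of 6 IVF explants. The IFNT libraries overlapped both Control and the conceptus groups, and no AI or IVF library lay within the Control range. Its log2 fold change was 0.50 ± 0.13 (SE; adjusted p = 0.0295) with the block and 0.46 ± 0.18 (adjusted p = 0.370) without it, both by edgeR. The call was kept in 9 of 17 fits with the block that left out 1 IFNT, AI or IVF library, where the adjusted p ran from 0.0177 to 0.107. It was lost without IFNT 2, 3, 4 or 5, without AI 2, 3 or 4, and without IVF 3.

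ENSBTAG00000016378 was the lower. It had 114, 129, 122, 132, 105 and 78.5 CPM in Control, and 222, 167, 242, 228, 223 and 171 CPM in IFNT. In AI it had 167, 159, 161 and 148 CPM, and in IVF it ran from 139 to 197 CPM with a median of 169. All treated libraries lay above the Control range. It lay below the IFNT explant of the same uterus in 4 of 4 AI and 5 of 6 IVF explants. Its log2 fold change was -0.40 ± 0.09 (SE; adjusted p = 0.0213) with the block and -0.32 ± 0.13 (adjusted p = 0.375) without it, both by edgeR. The call was kept in 14 of 17 such fits and lost without IFNT 3, IFNT 4 or AI 4, with an adjusted p from 0.00558 to 0.0764. Taken alone with the block, AI against IFNT was called for 2 of the 73 genes (6.95% of all genes). These were the same 2 genes, with differences of -0.47 ± 0.12 (SE; adjusted p = 0.0278, edgeR) here and 0.61 ± 0.16 (adjusted p = 0.0282) in ENSBTAG00000013225. IVF against IFNT was called for 0 of the 73 (0.0197% of all genes), and these 2 had an adjusted p of 0.169 and 0.212 (edgeR). At an unadjusted p under 0.05 there were 9 of the 73 and 2107 of all genes, and DESeq2 with the block called 0 of the 73 and 390 of all genes. Without the block edgeR called 0 of the 73, and 0 of all genes, in AI against IFNT and in IVF against IFNT. At an unadjusted p under 0.05 these fits had 3 and 0 of the 73 (1495 and 866 of all genes), and DESeq2 called 0 of the 73 in both.

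**Figure D4:**
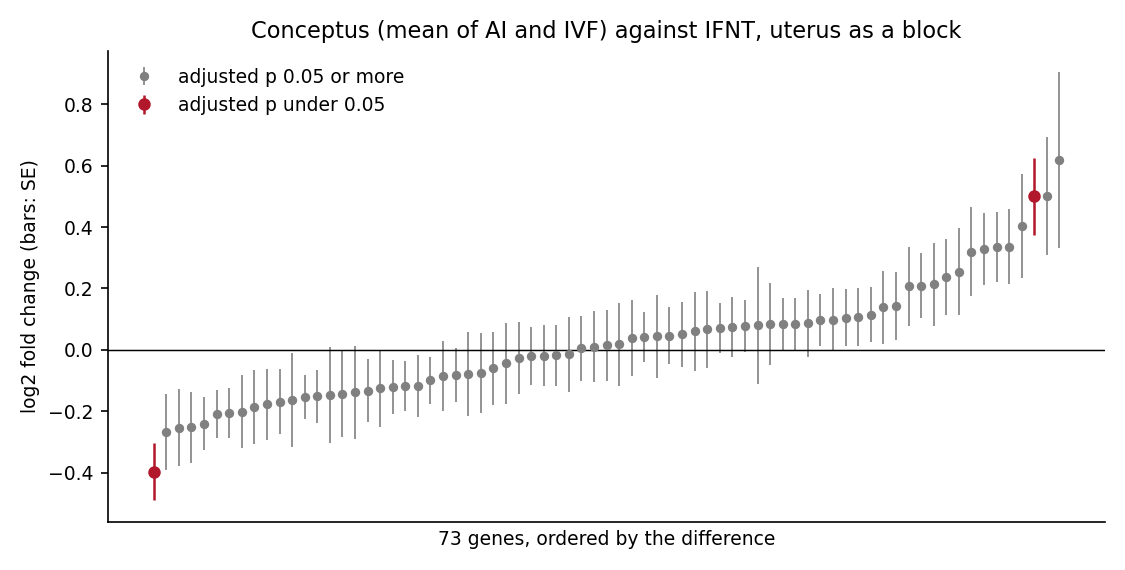
Log2 fold change of the conceptus groups (mean of AI and IVF) against IFNT for each of the 73 genes, with the uterus as a block and bars of 1 SE. The genes are ordered by the difference. The values run from -0.40 to 0.62 around a median of 0.01, and the 2 genes called at an adjusted p under 0.05 are in red.

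The direction of this comparison over the 73 genes was not stable. It differed between CPM on column totals and the TMM-scaled fit, and it turned on IFNT 2. By CPM, 41 of the 73 genes were lower with a conceptus, with a median ratio of 0.986. In the fit without the block, 40 were positive. With all libraries and the block, the median log2 fold change was 0.01 and 39 genes were positive. Without IFNT 2 it was -0.08 with 22 positive, and 4 genes were called, all lower with a conceptus, against 6.92% of all genes in that fit. Within uteri, the median AI to IFNT ratio was 0.910, 1.32, 0.966 and 0.942 in uteri 1 to 4. The IVF to IFNT ratio was 0.831, 1.28, 0.918, 1.00, 0.845 and 0.865 in uteri 1, 2, 3, 4, 5 and 10. Uterus 2 alone had medians well above 1, and the others lay at or below it. These ratios used column totals. Over all abundant genes the AI to IFNT medians were 1.02, 1.06, 0.974 and 1.05 in uteri 1 to 4. The IVF to IFNT medians were 0.989, 1.05, 0.968, 1.01, 0.959 and 0.908 in the same order of uteri as above. Uterus 2 was thus the highest over all abundant genes too, by a smaller margin.

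AI and IVF explants were compared with each other, a contrast the rule did not use. By edgeR 0 of the 73 genes differed with or without the block (0% of all genes in both). A single gene passed an unadjusted p under 0.05 in each fit, against 343 of all genes without the block and 1254 with it. DESeq2 also called 0 of the 73, and 102 of all genes with the block. The log2 differences ran from -0.17 to 0.51 without the block. Within uteri 1 to 4 the median AI to IVF ratio was 1.10, 1.03, 1.04 and 0.939, with AI the higher in 54, 43, 46 and 24 of the 73 genes. Over all abundant genes the median ratio was 1.04, 1.01, 1.01 and 1.03.

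By conceptus sex, 0 of the 73 genes were called in edgeR with or without the block (0% of 15099 genes). DESeq2 called 0 of the 73, and 46 of all genes with the block. With the block, 65 of the 73 log2 differences were lower with a male conceptus, with a median of -0.18. The 73 genes vary together, so this count is not a test and shows neither an effect of sex nor its absence. At an unadjusted p under 0.05 there were 9, all lower with a male, against 1757 of all genes, and the smallest adjusted p was 0.36. Without the block the median was -0.09 and 50 were lower, and 1 gene passed that unadjusted limit, against 1089 of all genes. Uteri 1, 3 and 4 had a conceptus of each sex. The median female to male ratio of the 73 genes was 1.10, 1.04 and 1.06 there, with the female higher for 54, 46 and 49 genes. The 84 genes with a ratio of 2 or more had 1.17, 1.05 and 1.22, and all abundant genes had 1.04, 1.01 and 0.975. Of all abundant genes, 57.9%, 51.6% and 44.1% were higher with the female. The female conceptus was from AI in uteri 1 and 3 and from IVF in uterus 4. AI had 3 female conceptuses and 1 male, whereas IVF had 2 and 5, so sex and origin overlap in part.

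Conceptus length was 26.1 mm ± 4.66 (SD, n = 4) in AI and 25.4 mm ± 15.2 (SD, n = 7) in IVF, from 8 to 54 mm. The slope of expression on log2 length over the 11 conceptus libraries, with origin as a term, was called for 0 of the 73 genes in edgeR (0% of 14822 genes) with or without the block. Without the block 1 of the 73 and 461 of all genes passed an unadjusted p under 0.05, and with the block 5 and 225. The median slope was 0.04 per doubling without the block, with 50 of 73 positive. With the block, which leaves 2 residual degrees of freedom, DESeq2 called 1 of the 73 and 13 of all 14327 genes with an adjusted p.

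The 73 genes differed from other abundant genes in how their variance was divided. The log2 CPM here was on TMM-scaled totals, over the 22 libraries whose uterus gave another library. Treatment group explained a median of 62.3% of its variance, from 22.2% to 79.5%. Over all abundant genes the median was 13.04%, and over the genes with a ratio of 2 or more it was 82.4%. The rule selects for the group share. A larger group share leaves less of the variance for the uterus, so the lower uterus share follows in part from the choice. The uterus explained a median of 21.8% in the 73 genes, from 3.47% to 60.3%, and 52.9% in all abundant genes. The biological coefficient of variation had a median of 20.9% without the block and 16.5% with it, close to the 21.3% and 14.6% of all abundant genes. The mild genes thus varied between replicate explants about as much as others of their abundance.

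**Figure D5:**
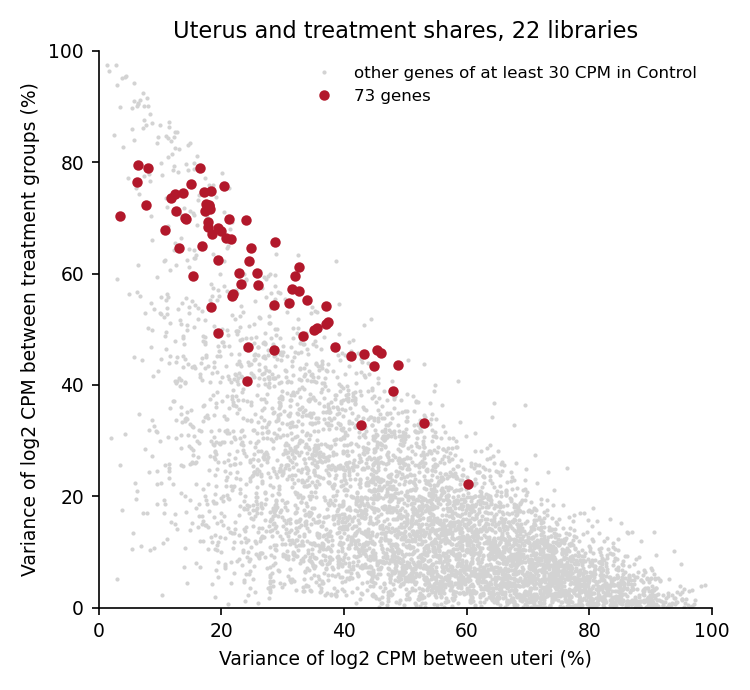
Share of the variance of TMM-scaled log2 CPM between uteri (x axis, %) and between treatment groups (y axis, %) over 22 libraries. Red points are the 73 genes and grey points the other genes of at least 30 CPM in Control. The red points have a median of 21.8% for uterus and 62.3% for group. Their group shares run from 22.2% to 79.5%, and grey points reach 97.5%.

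After group and uterus means were removed, most pairs of the 73 genes were positively correlated. Over 2628 pairs of them, the median Pearson correlation across the 22 libraries was 0.47 and 90.2% of pairs were positive, against a median of 0.02 over pairs of all abundant genes. The genes with a ratio of 2 or more had a higher median of 0.63 (97.6% positive), and the 105 genes of the mirror rule had 0.25 (73.3% positive). These pairs share their libraries and their scaling, and genes are not independent replicates. IFNT 2 had a mean residual of -0.32 on the log2 scale over the 73 genes. Without it the median correlation was 0.28 with 79.2% positive, against 0.01 over all abundant genes.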

How the data were processed

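The authors deposited read counts per gene, whole numbers that are not normalized, for 23 explant libraries made with a stranded TruSeq mRNA kit, per the labels' protocols. HISAT2, StringTie, edgeR and the build UMD3.1 are named without versions or roles per the submitters' processing notes. No source used here gives the counter, annotation or strand setting, so overlapping genes and near-identical copies may share reads.

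CPM used the column totals. Tests used R 4.3.3 and edgeR 4.0.16 on the deposited counts: filterByExpr, TMM, the quasi-likelihood F test over all 23 libraries, Benjamini-Hochberg adjustment over all genes tested and a call at an adjusted p under 0.05. Conceptus is the mean of AI and IVF. The scripts were tested on simulated data. Variance shares, correlations, residuals and the pairing check used log2 CPM with a prior count of 2. Unlike the other CPM values, these were on TMM-scaled totals of the genes that passed the filter.

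The pairing was checked by correlating each library's deviations from its group mean. In the 30 pairs that share a uterus number r ran from 0.15 to 0.71 (median 0.51). In the 166 pairs of different number and different group it ran from -0.45 to 0.49 (median -0.08), so the ranges overlap. Libraries of the same number were thus more alike in the median. The numbers, written U in the titles, are read as uterus numbers, although no label explains them. Whether they mark anything else was not tested. The comparisons are without this block, and values with the uterus as a block stand beside them where a call or count changed. No label says how explants of a group were separated. The conceptus titles carry a further, unexplained code shared by all 4 AI libraries and by some IVF libraries, which no fit includes. The p-values measure the spread between these libraries.

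The 73 genes and all lists were chosen with earlier results of these data known. The rule for named genes rested on symbols and lists. Since 0 identifiers matched a symbol, its fallback named the 2 genes with the highest IFNT ratio. The lists, markers, promoters and motifs were not applied. Alternatives were DESeq2 1.42.0, RLE size factors, no filter, other bounds of the rule, and leaving out libraries or uteri.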

Additional observations from a re-analysis of the deposited data

Results flagged for a closer look

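Among 31 reported values tested for a library far from the rest of its group, 2 stood apart, both in Control 5. Its summed level of the 73 genes without the most abundant was 9843 CPM, and the nearest Control had 8080 CPM. For ENSBTAG00000013290 it had 121.6 CPM, and the nearest Control had 71.6 CPM. Chance flags about 1 in 20 groups. Over all 292 combinations of gene and group, 17 were marked in this way (5.82%), 4 of them in Control 5. No cause was tested.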

How the results depend on the processing

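The number of genes depends on the bounds: 132 with a Control minimum of 10 CPM and 23 with 100 CPM. With TMM-scaled totals it was 93, of which 68 were among the 73. TMM moved the median of all abundant genes by 0.07 (IFNT), 0.10 (AI) and 0.13 (IVF) on the log2 scale, and the median ratios of the 73 genes became 1.64, 1.70 and 1.63. Genes called in AI against Control ranged from 28 (without AI 3) to 52 when 1 AI or Control library was left out. Conceptus against IFNT gave 0 calls without the block under every alternative run. With the replicate block it gave 2, also by DESeq2 and with RLE factors. Leaving out 1 library from the fit with the block gave 4 without IFNT 2 or IVF 5, 3 without IFNT 1, 1 without IFNT 5, AI 2, AI 3 or IVF 3, 0 without IFNT 3, IFNT 4 or AI 4, and 2 otherwise. Leaving out uterus 1 gave 1, higher with a conceptus, and leaving out uterus 3 or 4 gave 0. Without uterus 2 there were 2, both lower, so the higher call was lost. Without uterus 5 or 10 there were 2, 1 higher and 1 lower. For conceptus length, DESeq2 with the block called 1. The causes were not tested, and fits with libraries left out also rest on fewer of them. No named gene reversed its direction in Conceptus against IFNT under the alternatives run, and AI against IFNT went from 0 calls to 2 with the block. The block moved the counts against Control by under 1.5 times and left AI against IVF, IVF against IFNT, sex and length at 0 in edgeR. The AI group had only 4 libraries, and few uteri had a conceptus of each sex. What limits the precision was not tested.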
